A study of Mus musculus with 21 samples.

Results

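The regions described here are places at the ends of genes where C/EBPα had a peak in both libraries from hepatocytes without Arid1a and in neither library from control hepatocytes. They were selected on peak calls: merging overlapping peaks (by at least 1 bp) across the 4 C/EBPα lists gave 27244 regions. A region counts as gained when both KO lists and no WT list have a peak in it, and as constant when all 4 lists do. There were 749 gained regions, and the 287 of them that lie within 1 kb of either annotated end of a protein-coding gene are the subject here, out of 4315 C/EBPα regions at gene ends. Among regions with a peak in both KO lists, 10.1% of those at gene ends and 4.06% of those elsewhere were gained, against 5.27% over all. Because the C/EBPα lists themselves chose the 287 regions, everything about their C/EBPα peaks is a description without a test.

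The data came from perfused primary hepatocytes of livers of mice at postnatal day 90, on a mixed C57/B6 and 129 background. WT mice carried floxed Arid1a alleles and no Cre (Arid1a Fl/Fl), and KO mice carried the same alleles with Cre driven by the albumin promoter (Arid1a Fl/Fl; Alb-cre), which is active in hepatocytes. A mouse with V5-tagged Arid1a gave 1 further list of ARID1A peaks from an antibody to the tag. Chromatin was immunoprecipitated for C/EBPα (2 WT and 2 KO libraries) and for H3K4me2 (3 WT and 3 KO libraries), and of the 21 samples the 10 inputs were not used here. The labels do not say whether replicates came from separate animals, so p values measure only the spread between these libraries.

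The C/EBPα lists held between 16178 and 23646 peaks, the ARID1A list 5726 and 5 of the H3K4me2 lists between 24908 and 61246. The third KO list of H3K4me2 stood apart with 175797 peaks, and the main results over the H3K4me2 lists are therefore given with and without it. Differences under stricter H3K4me2 criteria or at constant regions alone, and counts within subsets of regions, are given only with it. In each C/EBPα and ARID1A list the peaks present came to between 40.01% and 40.07% of the highest peak number, so a missing peak means that none was called or kept. Of 14 hepatocyte marker genes, 9 had a C/EBPα peak at an end in all 4 lists and all 14 had H3K4me2 at an end in all 6. Each of the endothelial, macrophage, stellate, biliary and lymphocyte lists had at most 1 gene of the first kind and 2 of the second. Peak lists give no readout of the Arid1a deletion, so the genotypes are as labelled.

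C/EBPα is a leucine zipper transcription factor of differentiated hepatocytes that binds DNA as a dimer, each partner reading one arm of a short palindrome. ARID1A is a DNA-binding subunit of SWI/SNF, a complex that moves nucleosomes with the energy of ATP and so alters which sites factors can reach. H3K4me2, dimethylation of lysine 4 of histone H3, marks promoters and enhancers. Many promoters of broadly expressed genes are rich in CpG dinucleotides and stay open in most cell types, whereas liver-specific genes depend on factors such as C/EBPα.

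The promoters of 6 gained regions are printed to show where the C/EBP spellings lie in them. They are the widest named members whose promoter lies wholly inside the region and contains a C/EBP spelling, so a match was part of the choice and they do not stand for the other members. Each line gives the 250 bases before a RefSeq transcript start, read on the strand of the gene, with matches to the C/EBP half-site pair TTNCNNAA on either strand in capitals. Coordinates are of GRCm38.p6, the assembly that mm10 names.
Nr2c1, chr10:94147681-94147930, plus strand: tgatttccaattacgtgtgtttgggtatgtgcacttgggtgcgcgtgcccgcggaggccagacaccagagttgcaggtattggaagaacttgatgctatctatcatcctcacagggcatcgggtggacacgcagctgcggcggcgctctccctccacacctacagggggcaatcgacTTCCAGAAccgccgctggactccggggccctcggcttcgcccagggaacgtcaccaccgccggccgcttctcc
Bco2, chr9:50555139-50555388, minus strand: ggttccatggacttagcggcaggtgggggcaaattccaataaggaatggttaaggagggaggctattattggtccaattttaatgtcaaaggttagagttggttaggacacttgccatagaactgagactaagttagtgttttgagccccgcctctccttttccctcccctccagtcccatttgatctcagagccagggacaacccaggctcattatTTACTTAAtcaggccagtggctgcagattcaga
Wbp2, chr11:116086996-116087245, minus strand: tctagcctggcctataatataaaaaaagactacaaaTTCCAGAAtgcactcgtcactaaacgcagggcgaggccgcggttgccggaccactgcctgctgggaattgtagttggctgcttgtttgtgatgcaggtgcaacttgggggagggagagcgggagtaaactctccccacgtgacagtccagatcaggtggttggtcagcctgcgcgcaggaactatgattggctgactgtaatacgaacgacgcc
Lcmt2, chr2:121140699-121140948, minus strand: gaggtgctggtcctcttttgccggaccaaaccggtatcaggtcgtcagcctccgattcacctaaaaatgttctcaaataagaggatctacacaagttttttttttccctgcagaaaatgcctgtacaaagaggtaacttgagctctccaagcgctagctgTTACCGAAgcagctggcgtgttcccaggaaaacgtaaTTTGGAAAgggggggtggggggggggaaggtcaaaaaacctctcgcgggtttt
Psmd4, chr3:95042615-95042864, minus strand: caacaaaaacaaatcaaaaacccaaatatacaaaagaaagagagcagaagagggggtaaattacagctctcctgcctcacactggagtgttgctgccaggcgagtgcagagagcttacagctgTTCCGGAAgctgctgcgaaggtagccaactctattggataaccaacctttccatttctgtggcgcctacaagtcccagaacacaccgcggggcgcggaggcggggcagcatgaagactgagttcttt
Gckr, chr5:31297313-31297562, plus strand: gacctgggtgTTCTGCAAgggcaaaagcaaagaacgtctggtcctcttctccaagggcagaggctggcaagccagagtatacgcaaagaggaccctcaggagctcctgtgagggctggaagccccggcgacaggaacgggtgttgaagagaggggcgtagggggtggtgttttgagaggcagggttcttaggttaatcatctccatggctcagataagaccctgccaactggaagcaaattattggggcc
For contrast, the promoters of 2 constant regions hold the full C/EBP palindrome TTGCGCAA. Both were picked with their values known, being the widest constant regions that hold it.
Rpia, chr6:70792176-70792425, minus strand: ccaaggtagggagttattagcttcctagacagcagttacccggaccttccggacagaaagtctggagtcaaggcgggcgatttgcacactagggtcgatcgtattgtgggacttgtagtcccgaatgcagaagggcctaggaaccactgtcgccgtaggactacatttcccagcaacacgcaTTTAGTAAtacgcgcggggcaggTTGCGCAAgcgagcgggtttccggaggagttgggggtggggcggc
Mpc2, chr1:165461010-165461259, plus strand: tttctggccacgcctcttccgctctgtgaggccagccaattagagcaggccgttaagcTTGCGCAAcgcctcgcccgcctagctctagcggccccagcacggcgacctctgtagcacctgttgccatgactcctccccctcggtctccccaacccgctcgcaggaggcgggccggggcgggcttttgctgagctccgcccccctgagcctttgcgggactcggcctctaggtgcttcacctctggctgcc

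Nr2c1 encodes an orphan nuclear receptor, Bco2 a mitochondrial enzyme that cleaves carotenoids, and Wbp2 a protein that binds WW domains. Lcmt2 encodes an enzyme of tRNA modification, Psmd4 a ubiquitin receptor of the proteasome, and Gckr the regulatory protein of glucokinase. Rpia encodes an enzyme of the pentose phosphate pathway and Mpc2 a subunit of the mitochondrial pyruvate carrier. The matches at Nr2c1 and Wbp2 are TTCCAGAA, beginning 73 and 214 bases before the start. The match at Bco2 is TTACTTAA, 33 bases before, and Lcmt2 has 2, TTACCGAA and TTTGGAAA. The Psmd4 match, TTCCGGAA, shares bases with an ETS site CCGGAAG. Of these 6 promoters, the one at Gckr also has the narrower spelling TTGCNNAA, as TTCTGCAA read on the opposite strand, 240 bases before the start. The palindrome lies 45 bases before the start of Rpia and 192 before that of Mpc2. All these distances are to the transcript start of the printed window. At Nr2c1, Bco2 and Gckr that start lies inside the gene, and the match there lies downstream of the annotated gene start.

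The C/EBP half-site pair TTNCNNAA was counted in promoter windows that overlap gained regions, in those at constant regions and in all promoters. The promoter table gave 228 windows of 300 bases (250 before and 50 after a start) overlapping gained regions, from 206 genes, and 1140 windows from 1027 genes at constant regions. Some genes have several windows, so windows are not independent, and no test was made. TTNCNNAA was present in 36.8% of windows at gained regions (95% exact binomial interval 30.6 to 43.5), in 51.1% at constant regions (48.1 to 54.0) and in 37.3% of all 21238 promoter windows. TTGCNNAA, a spelling added after the data were seen, was present in 12.7% (8.69 to 17.8), 24.2% (21.7 to 26.8) and 10.18% of the same windows. The palindrome TTGCGCAA had 24 matches among windows at constant regions (2.11%), and 0.221% of all windows had one. At gained regions 0 of 228 windows had it, which allows a share of up to 1.32%. The C/EBP-ATF element TGATGCAA, read by dimers of a C/EBP and an ATF protein, was in 1 window at gained regions (0.439%), 2.46% at constant regions and 0.866% of all. The C/EBP spellings were counted on both strands and are nested, since every TTGCGCAA is a TTGCNNAA and every TTGCNNAA a TTNCNNAA. The sets were not matched for base composition, with a median GC content of 60% at gained regions, 59.7% at constant regions and 56.3% in all windows. A match is a string of letters and not a measured binding site.

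Gained regions also had the lower shares among narrower regions and in windows wholly inside a region. Among regions in the narrower range (mean width percentile under 50 in the KO lists), TTNCNNAA was in 38.5% (29.6 to 47.9) of 117 windows at gained regions and 53.8% (48.0 to 59.5) of 303 at constant regions. TTGCNNAA was in 12.8% and 21.5% of them. This cut does not match widths, since 90 of the 178 members in that range lay under percentile 25, against 186 of its 675 constant regions. In the 97 windows that lay wholly inside a gained region TTNCNNAA reached 41.2%, against 57.8% of 704 wholly inside a constant region, and TTGCNNAA 18.6% (11.4 to 27.7) against 29.5%, where all promoter windows had it in 10.18%. For each of these TTGCNNAA pairs the intervals overlapped.

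Spellings of factors known from CpG-rich promoters were common at gained regions. The ETS site CCGGAAG was in 23.2% (17.9 to 29.3) of their windows, 17.3% (15.1 to 19.6) at constant regions and 11.6% of all windows. It shared bases with a TTNCNNAA match in 1 of the 84 windows at gained regions that held TTNCNNAA, and in 4 of 582 at constant regions. The GC box GGGCGG was in 68.0%, 62.4% and 46.2% of the 3 sets, the NRF1 site in 12.3%, 10.4% and 6.38%, and the E-box CACGTG in 13.6%, 10.18% and 7.84%. The cAMP response element TGACGTCA was in 4.82%, 2.54% and 2.24%, the YY1 site ATGGCGG in 9.21%, 8.25% and 5.25%, and CCAAT in 50.0%, 49.3% and 38.2%. The TATA box TATAAA was the exception, with 8.33%, 9.04% and 12.6%. For these 8 spellings the intervals of gained and constant regions overlapped. The ratio of observed to expected CpG had a median of 0.801 at gained regions, 0.779 at constant regions and 0.567 over all promoters. A ratio of at least 0.6 was found in 80.3%, 74.6% and 47.7% of windows, and in 32.3% of the 31 windows at the 171 gene-end regions lost in KO (a peak in both WT lists and neither KO list).

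**Figure D1:**
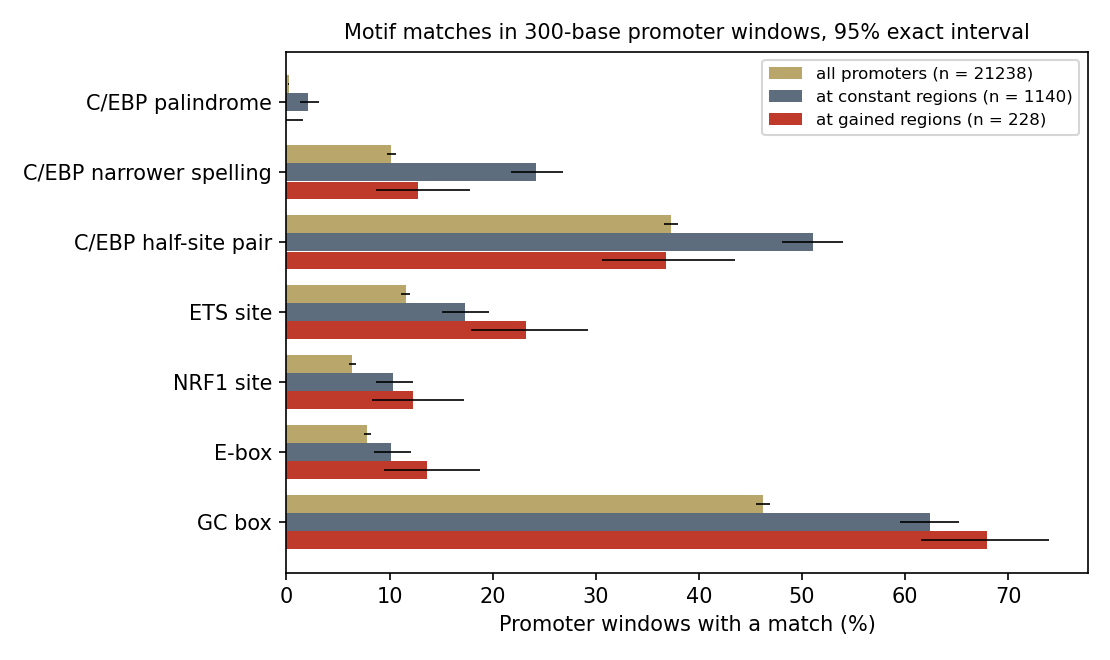
Share of 300-base promoter windows (%, horizontal axis) with a match on either strand to each of 7 motif spellings, for all promoters, promoters at constant regions and promoters at gained regions, with 95% exact binomial intervals as lines. For the C/EBP half-site pair the gained bar (36.8%) lies at that of all promoters (37.3%) and below that of constant regions (51.1%), while for the ETS site it is the longest of the 3 (23.2%). The sets were not matched for base composition.

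Most gained regions lay within 1 kb of a gene start. The strand of the gene was known for 256 of the 287 regions, and 248 of those (96.9%, interval 93.9 to 98.6) lay within 1 kb of an annotated start, compared with 85.5% (83.7 to 87.2) of 1662 constant regions and 54.1% (45.3 to 62.8) of 133 lost ones. The midpoint of the region was within 250 bp of the start in 154 of the 248 (62.1%, 55.7 to 68.2), against 51.7% (49.0 to 54.3) of 1421 constant regions at starts. The median midpoint lay 29.5 bp upstream of the start at gained and 45 bp upstream at constant regions. The start itself was covered by 62.5% of the 248 gained and 59.2% of the 1421 constant regions at starts. Counted over all 287, 179 regions (62.4%) covered the nearest annotated end itself.

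**Figure D2:**
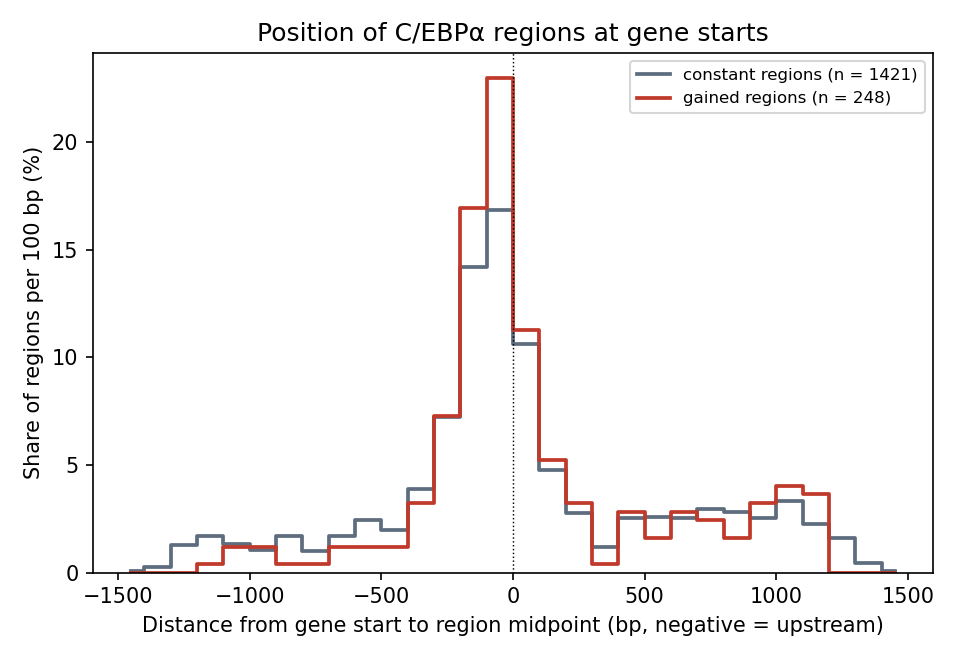
Distance in bp from the annotated gene start to the midpoint of the C/EBPα region (horizontal axis, negative upstream) against the share of regions in each 100 bp (vertical axis, %), for 248 gained and 1421 constant regions at gene starts. Both sets peak just upstream of the start, and the gained set has more of its regions there, with 62.1% within 250 bp against 51.7%.

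The farthest from a gene end among the members were at Ubtd1 (980 bp), C1s1 (979 bp) and Kyat3 (954 bp), and the gained regions just outside were near Lsm14a (1011 bp), Ghr (1029 bp) and Mnt (1032 bp). A limit of 500 bp kept 240 members, and 2 kb gave 342.

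Only 8 members lay at the far end of a gene and at no annotated start. They were at Nr0b2, Cyp4f13, Dbp, Gm3435, Ticam1, Pex26, Zfp507 and Ccdc172. Nr0b2 encodes SHP, a nuclear receptor without a DNA-binding domain that represses bile acid synthesis, and Dbp a leucine zipper factor of the clock output. The Nr0b2 region (chr4:133557123-133557845) was the widest of the 8, with 676 and 723 bp in the KO lists, and the Ccdc172 region the narrowest by percentile, with 278 and 279 bp.

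Some members lay near more than 1 gene, starts and far ends counted alike. A member lay within 1 kb of ends of 2 or more genes in 65 cases (22.6%, interval 17.9 to 27.9), against 301 of 2066 constant regions (14.6%, 13.1 to 16.2). The 5 widest of them were at Bco2 and Il18 (an inflammatory cytokine), Cbx5 (heterochromatin protein HP1 alpha) and Hnrnpa1 (an RNA-binding protein), Ctdnep1 (a nuclear envelope phosphatase) and Elp5 (a subunit of Elongator), Aasdhppt and Kbtbd3, and Lcmt2 and Adal. In all, 342 protein-coding genes had an end at a member, 1.56% of the 21887 annotated and 11.5% of the 2966 with a region in both KO lists at an end. Of the 342, 284 had no region with a WT peak at either end, 58 had one, 41 had a constant region as well, and 0 had a lost one.

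C/EBPα peaks at the members were narrower than those at constant regions, with wide exceptions. Peak width is the only measure of size in these lists, and its rank is given as a percentile among all peaks of a list. The median width was 374 bp in both KO lists, ranging from 232 to 1288 bp in the first and 206 to 1372 bp in the second, against 474 and 463 bp at constant regions. By mean KO percentile, 31.4% of members fell under percentile 25 and 18.5% over 75, against 9.003% and 35.6% of constant regions. Widths in the 2 KO lists differed by a median of 57 bp at a member, and their rank correlation over the 287 members was 0.64 (0.73 over constant regions), a description of 2 libraries.

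**Figure D3:**
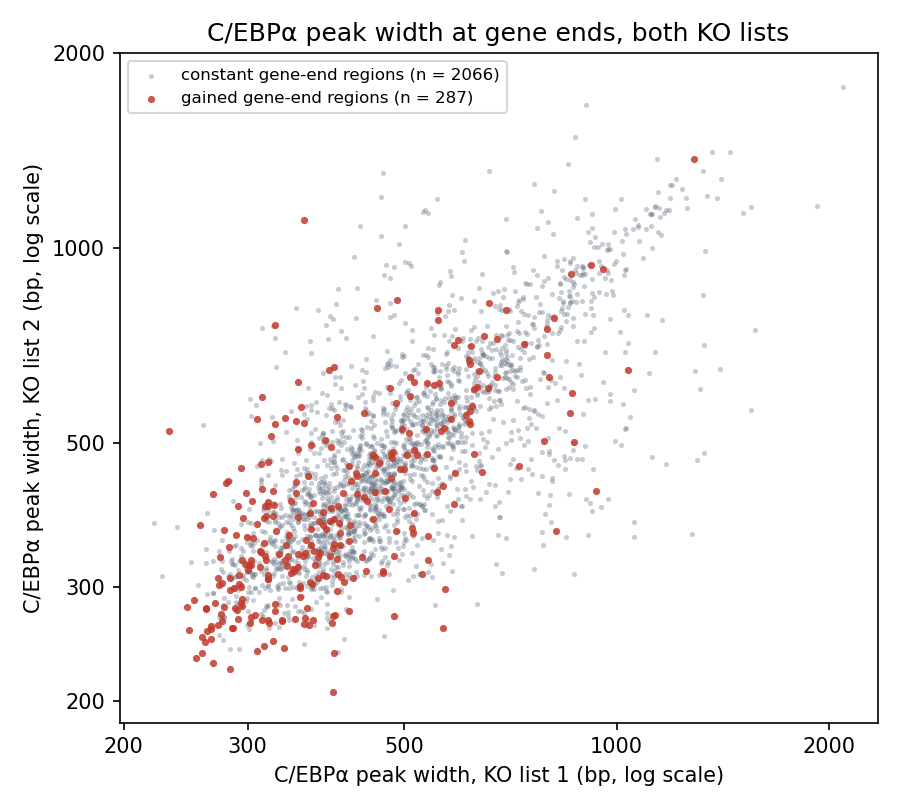
Width in bp of the C/EBPα peak in KO list 1 (horizontal axis) and KO list 2 (vertical axis), both on log scales, one point per region, for 287 gained and 2066 constant regions at gene ends. Gained regions crowd the narrow corner (median 374 bp in both lists), and the one at Cat (1288 and 1372 bp) lies far above the rest of them.

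The widest member lay over the start of Cat, the gene of catalase, which breaks down hydrogen peroxide in peroxisomes (chr2:103484941-103486312). Its peaks of 1288 and 1372 bp were at percentile 99.6 and 99.8 of the KO lists, and the nearest WT peak lay 6162 bp away. Next were Nr2c1 (955 and 928 bp), Hbp1 (920 and 940 bp), which encodes an HMG-box repressor, Slc35f5 (862 and 913 bp), a solute carrier, and Ccdc9 (816 and 779 bp). Not every wide member was new ground. At Nr2c1 a constant region lay 99 bp away, and at Hbp1 one lay 366 bp away, while at Slc35f5 the nearest WT peak was 40506 bp away. The narrowest by percentile were at Hps6 (253 and 233 bp), Pak4 (258 and 237 bp), Asnsd1 (268 and 229 bp) and Pcbp2 (261 and 246 bp), which encode a protein of organelle biogenesis, a kinase, an asparagine synthetase-like protein and an RNA-binding protein.

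An H3K4me2 peak overlapped most of these regions by at least 1 bp in both genotypes. This mark was not used to choose them. The share of the 287 members with an H3K4me2 peak was 95.1%, 97.9% and 88.5% in the 3 WT lists and 86.4%, 98.3% and 85.4% in the 3 KO lists. The groups overlapped, the second library of each being the highest. The means were 93.8% ± 4.83 in WT and 90.0% ± 7.16 in KO (SD, n = 3 each), a difference of -3.83 percentage points that is smaller than either spread (two-sided exact permutation p = 0.6, with 0.1 the smallest that 3 against 3 libraries allow). Without the third KO list the difference was -1.51 points (exact permutation p = 1). Where at least 50% of a region had to lie in H3K4me2 peaks, the means were 89.4% in WT and 79.8% in KO (difference -9.64 points, exact permutation p = 0.5). With peaks at or above the pooled median −log10 q alone, which can move with depth, they were 93.4% and 77.9% (difference -15.4 points, exact permutation p = 0.4). That median pools the peaks of all lists, with more from the third KO list than from any other. Neither of these stricter settings was repeated without that list. At constant regions, by any overlap, the shares were 92.1%, 96.5% and 87.5% in WT and 80.4%, 94.97% and 82.3% in KO (difference -6.11 points, exact permutation p = 0.3).

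In each of the 6 libraries a larger share of members than of constant regions was marked, by 3.06, 1.44 and 1.04 percentage points in WT and by 6.01, 3.29 and 3.08 points in KO. All 3 KO values exceeded all 3 WT values, with 3.08 against 3.06 points for the closest pair. The means of 1.85 ± 1.07 and 4.13 ± 1.64 points (SD, n = 3 each) differed by 2.28 points with an exact permutation p of 0.1, the smallest possible, which does not pass 0.05. Without the third KO list the difference was 2.81 points (exact permutation p = 0.2, the smallest 3 against 2 libraries allow). The gap was not separated when a region had to be at least 50% covered by H3K4me2 (1.88 points, exact permutation p = 0.7). With members drawn from the same number of widest C/EBPα peaks of each list it was 1.03 points (exact permutation p = 0.7). The 2 sets were not matched for position. Of regions with a known strand, 3.13% of members and 14.5% of constant ones lay at a far end only. All 6 lists marked 25.3% of those constant far-end regions. At gene starts alone all 6 marked 77.8% of members and 78.5% of constant regions. The part of position in the gap was not tested.

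**Figure D4:**
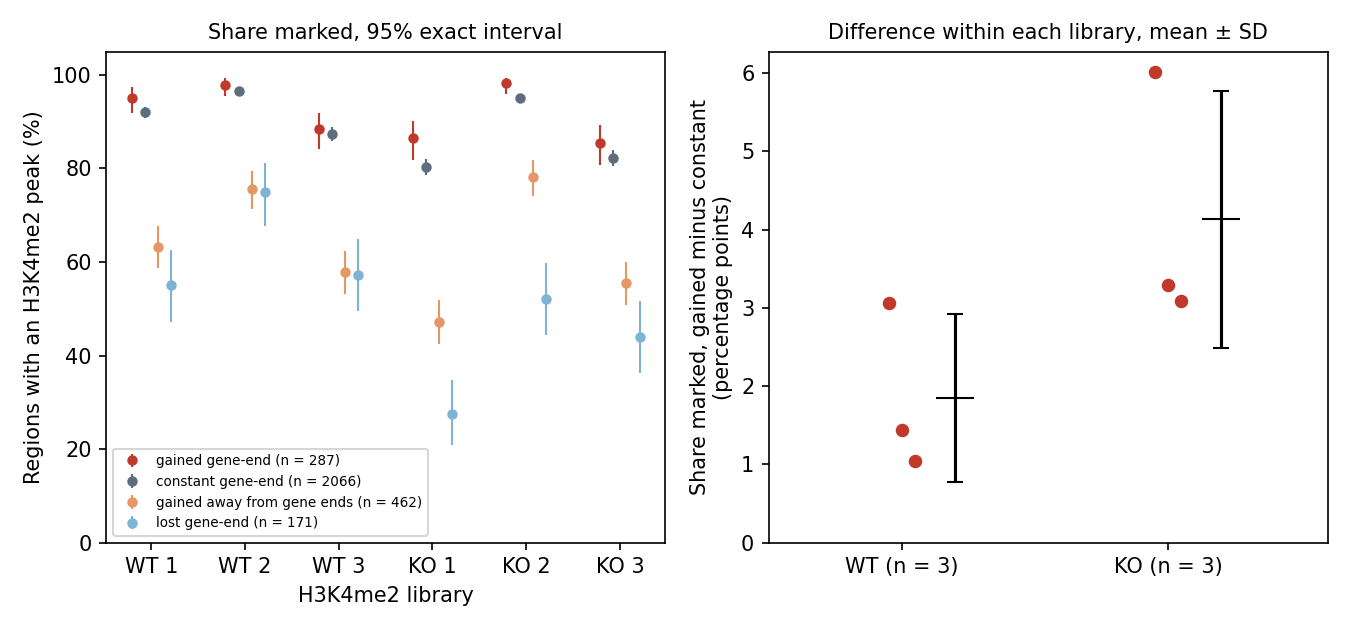
Left, share of regions with an H3K4me2 peak (%, vertical axis) in each of the 6 H3K4me2 libraries, for gained and constant regions at gene ends, gained regions elsewhere and lost regions at gene ends, with 95% exact binomial intervals; right, gained minus constant share in each library (percentage points), with mean ± SD of 3 libraries per genotype. Gained gene-end regions lie between 85.4% and 98.3% in every library, above constant ones, and the within-library difference is 1.04 to 3.06 points in WT and 3.08 to 6.01 in KO. The sets were not matched for position at gene starts or far ends.

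All 6 H3K4me2 lists marked 214 of the 287 members (74.6%, interval 69.1 to 79.5), against 70.1% (68.1 to 72.1) of constant regions, 34.8% (30.5 to 39.4) of gained regions away from gene ends and 21.6% (15.7 to 28.6) of lost gene-end regions. Leaving out the third KO list, all 5 others marked 80.8% of members and 76.0% of constant regions. At gene starts alone the shares for all 6 were 77.8% of 248 members and 78.5% of constant regions. In WT, where no C/EBPα peak was listed, 251 members (87.5%, 83.1 to 91.1) had H3K4me2 in all 3 lists and 5 in none. No member passed from all 3 WT lists to no KO list, and none from no WT list to all 3 KO lists. Each count of 0 of 287 allows a share of up to 1.05% by 3 counts of the total and 1.28% by the exact interval. The 4 members without H3K4me2 in any list were at Zfp507, Ninl (a centrosomal protein), Ccdc172 and Etfrf1, with C/EBPα peaks of 264 to 303 bp.

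Ranks of H3K4me2 showed the same overlap between genotypes. Each region took the percentile of −log10 q of its H3K4me2 peak within the list, or 0 without one. The mean over members was 75.7, 87.0 and 71.8 in the WT lists and 59.8, 85.8 and 73.8 in the KO lists. The group means were 78.2 ± 7.90 and 73.1 ± 12.99 (SD, n = 3 each), a difference of -5.04 (exact permutation p = 0.6). It was -5.35 without the third KO list (exact permutation p = 0.6) and 1.61 without the first (exact permutation p = 1). Ranks were higher in all KO lists than in all WT lists at 5 members, 1.74%, near the 1.11% of all 4315 gene-end regions. They were lower in all KO lists at 7 members, 2.44%, near the background of 2.5%. Without the third KO list the counts were 11 (3.83%, against 2.36% of all gene-end regions) and 18 (6.27%, against 5.21%).

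Among the 5 with higher ranks, Gsta2, a glutathione S-transferase of detoxification, had percentiles of 0, 48.0 and 0 in WT and 61.4, 76.4 and 88.8 in KO. The values at Tmem97, a membrane protein of the endoplasmic reticulum, were 67.4, 85.7 and 51.6 in WT and 92.3, 91.5 and 94.7 in KO. The others were Cyp4f13, a cytochrome P450, Atf5, a leucine zipper factor of stress responses, and Eif5, an initiation factor. Of those with lower ranks, Nr0b2 had the largest mean difference, with 82.9, 82.7 and 81.9 in WT and 0, 81.0 and 0 in KO. Its second KO list thus lay just under the lowest WT list. The others were Zswim6, Slc2a8 (a glucose transporter), Zfp788, Parp6, Taf6l (a subunit of the SAGA coactivator) and Cfl2, a cofilin of the actin skeleton that was named after its values were seen.

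ARID1A peaks lay on few of these regions in cells that have the protein. Of the 287 members 9 (3.14%, interval 1.44 to 5.87) overlapped an ARID1A peak, against 14.96% (13.4 to 16.6) of constant gene-end regions, 6.43% (3.25 to 11.2) of lost gene-end regions and 11.04% (8.33 to 14.3) of gained regions away from gene ends. This is a single V5 library, so there is no replicate check and no test. At gene starts the shares were 2.42% of members and 12.03% of constant regions. Peak width moves with it: of members with a mean width percentile under 50, 2.25% (0.616 to 5.65) had ARID1A, against 7.26% (5.42 to 9.48) of constant regions in that range, and of wider ones 4.59% (1.51 to 10.4) against 18.7% (16.7 to 20.8). In the narrower range the intervals overlap. Counting ARID1A peaks up to 500 bp away gave 4.53% and 15.9%.

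Of those 9 members, the 8 with the widest ARID1A peaks were at Nr0b2 (575 bp), Coq10b (473 bp), Them7 (424 bp), Apoa5 (407 bp), Gckr (336 bp), Tor1b (332 bp), Mpzl2 (295 bp) and Nfe2l2 (258 bp). Apoa5 encodes an apolipoprotein that lowers plasma triglyceride, Coq10b a mitochondrial protein that binds coenzyme Q, and Nfe2l2 the antioxidant factor NRF2. In all 6 H3K4me2 lists 4 of the 9 were marked, and 210 of the 278 members without ARID1A.

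Genes of liver function with a member at an end were spread over many pathways. In 35 gene lists, assembled with earlier results of these data known, the share with a member is given beside 1.56% of all protein-coding genes. Only a gene with a region in both KO lists at an end can have a member, and 11.5% of those genes had one. Of 47 lipid and lipoprotein genes 3 had one and 14 a constant region. They were Apoa4 and Apoa5, both described with their locus, and Apoa2, an apolipoprotein of high-density lipoprotein whose region is shared with Tomm40l (483 and 270 bp). Of 20 bile acid genes 2 had one, Nr0b2 and Cyp8b1, an enzyme of cholic acid synthesis that had peaks of 303 and 324 bp over its start (chr9:121916153-121916480). Of 30 urea cycle and amino acid genes the 2 were Tdo2 (353 and 620 bp), which opens the ring of tryptophan, and Hal (516 and 488 bp), which begins histidine breakdown. At Hal a constant region lay 187 bp away.

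Sugar metabolism gave 4 of 22 genes, with 9 constant. Gckr had peaks of 582 and 545 bp over its start and the glycolytic genes Gapdh and Tpi1 had peaks of 677 and 633 bp and of 320 and 405 bp, placed 509 and 911 bp from theirs. Ugp2, which makes UDP-glucose for glycogen, had 2 members, of 537 and 526 bp and of 368 and 390 bp. H3K4me2 had peaks at Gapdh, Tpi1 and Gckr in all 6 lists. Plasma protein genes were mostly constant, with 37 of 46 so and 1 gained, Serpinc1, which encodes antithrombin. Its gained region (398 and 381 bp) lay 132 bp from a constant one. Of 30 cytochrome P450 and conjugation genes Gsta2 was the one with a member (521 and 479 bp). Of the 14 hepatocyte markers 0 had one and 9 were constant.

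Antioxidant and peroxisome genes had a member in 5 of 32 cases, with 11 constant. Beside Cat they were Nfe2l2 (428 and 444 bp), the cytosolic peroxide reductase Prdx2, whose region of 399 and 271 bp is shared with Rnaseh2a, and the peroxisome assembly genes Pex19 (283 and 309 bp) and Pex26 (292 and 303 bp). Of these 5 genes, 3 had no WT peak in a region at either end, and at Nfe2l2 a constant region lay 960 bp away. Immediate early genes gave 2 of 21, Jun (864 and 598 bp), a subunit of the AP-1 factor, and Klf6 (649 and 732 bp), a zinc finger factor, with 14 constant. Both Jun and Klf6 also had a WT peak in another region at an end. Growth arrest genes gave 2 of 25, Gadd45a (361 and 536 bp) and Gadd45b (335 and 266 bp), both induced by stress. At Gadd45a a constant region lay 1380 bp away. Xbp1, the factor of the unfolded protein response, had 316 and 350 bp, the SWI/SNF subunit Smarcb1 420 and 436 bp, and Mcm7, a subunit of the replicative helicase, 304 and 407 bp in a region shared with Ap4m1. Each was the single member of its list, of 20 hepatocyte factors, 25 SWI/SNF subunits and 40 cell cycle genes.

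Genes that every cell uses made up further lists. Mitochondrial ribosomal proteins had members at 5 of 78 genes (Mrpl23, Mrpl54, Mrpl36, Mrps36 and Mrpl21), with 4 constant. Cytosolic ribosomal proteins had 2 of 83 (Rps26 and Rps23), with 15 constant. The respiratory chain had 3 of 81 (Atp5pb, Atp5h and Ndufs6), splicing factors 3 of 79 (Hnrnpa0, Hnrnpa1 and Snrpc), and initiation and elongation factors 3 of 70 (Eif4g2, Eif1 and Eif5). RNA polymerase and general factors had 3 of 104 (Taf13, Polr1a and Taf6l), and vesicle traffic genes 4 of 194 (Tmed1, Arf2, Sec23a and Sec31b). Reference genes gave 2 of 18, Gapdh and Tbp, the TATA-binding protein (353 and 490 bp). Solute carriers had 5 of 378, zinc finger proteins 8 of 461, ubiquitin conjugation genes 1 of 156, histones 1 of 103, proteasome subunits 1 of 48 (Psmd4) and tRNA synthetases 0 of 33, with 10 constant. Endothelial, macrophage, stellate, biliary and lymphocyte marker lists had 0 members among 15, 14, 14, 10 and 12 genes. The lists differ in how many of their genes carry a C/EBPα region at all, and no list was tested. A region in both KO lists lay at an end of 39 plasma protein, 20 lipid and 18 cytosolic ribosomal genes. Of these 1, 3 and 2 had a member. It lay at an end of 16 antioxidant, 15 sugar and 15 mitochondrial ribosomal genes, of which 5, 4 and 5 had a member. For 10 bile acid, 10 reference, 26 splicing and 37 vesicle traffic genes with such a region the counts were 2, 2, 3 and 4. For 65 zinc finger, 53 solute carrier, 26 ubiquitin, 23 histone and 11 tRNA synthetase genes they were 8, 5, 1, 1 and 0. Over all 2966 such genes 11.5% had a member, and the lists set out here are a choice among the gene lists.

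The nearest WT C/EBPα peak of either list was a median of 10981 bp from a member (range 81 to 412781 bp), within 1 kb at 40 members (13.9%) and within 10 kb at 135 (47.0%, interval 41.1 to 53.0). For gained regions away from gene ends the median was 7348.5 bp, with such a peak within 10 kb at 56.1% (51.4 to 60.6). A constant region lay within 10 kb of 106 members (36.9%), a lost region within 10 kb of 8 (2.79%) and an ARID1A peak within 10 kb of 63 (22.0%).

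The Apoa cluster shows gained regions among constant ones. Apoa4, an apolipoprotein of the intestine and liver, had 2 members just after its start, chr9:46240876-46241676 with peaks of 801 and 632 bp and chr9:46241749-46242143 with 392 and 379 bp. Apoa5 had 1 over its start, chr9:46268248-46268980, with 621 and 706 bp and an ARID1A peak inside it. Between Apoa4 and Apoa5 lay 4 constant regions, with the one nearest to Apoa4 as wide as 1142 and 1070 bp in WT and 1080 and 1216 bp in KO. The region at an end of Apoc3 was constant too, at 574 and 593 bp in WT and 478 and 671 bp in KO. H3K4me2 was present at all 3 members in all 6 lists.

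**Figure D5:**
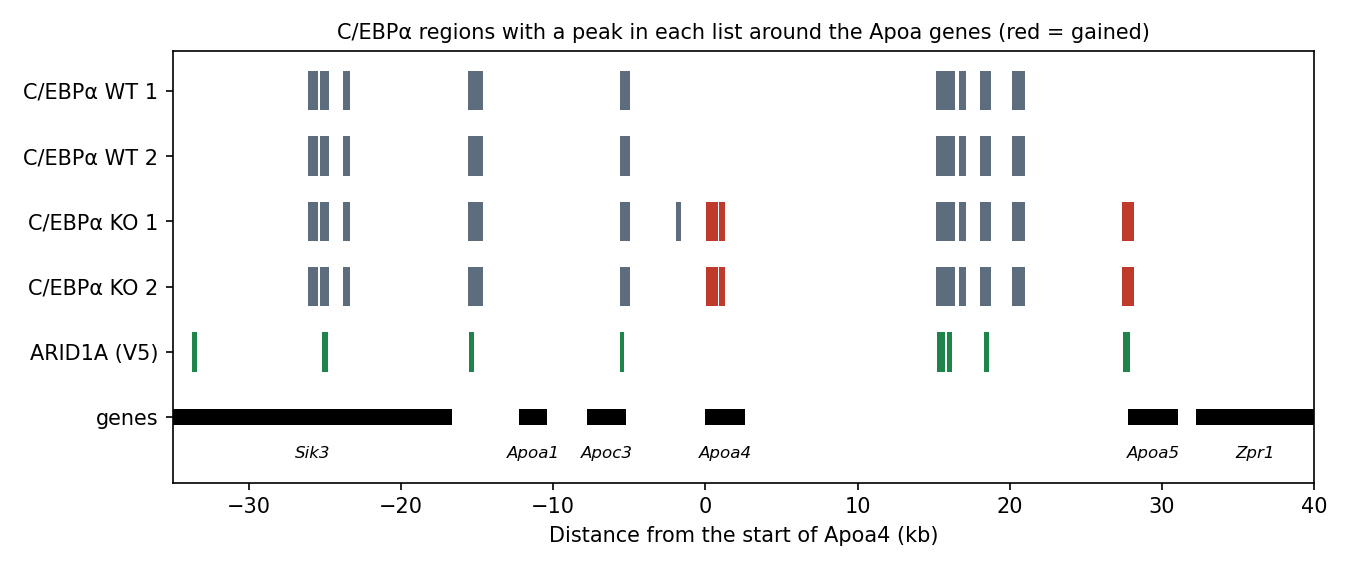
C/EBPα regions around Apoa4 by distance from its start (horizontal axis, kb), drawn in a row for each list that has a peak in the region (the full merged region is drawn), with ARID1A peaks and genes beneath. The red regions at Apoa4 and Apoa5 appear in both KO rows and neither WT row, and the grey regions between and beside them appear in all 4, except one in KO 1 alone.

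The other loci of wide or repeated members differed in the same way from place to place. Cat had constant regions on both sides, the nearest at 7211 and -7321 bp from its start, the former with an ARID1A peak. At Ugp2 the 2 members lay over the start and 406 to 942 bp into the gene, followed by a constant region beginning at 1319 bp (637 and 665 bp in WT, 693 and 781 bp in KO). At Nr0b2 the start carried a region with peaks in the second WT list and both KO lists (637, 576 and 504 bp), and the member lay 437 bp past the far end of the gene, with constant regions on either side. At Gckr the member over the start overlapped ARID1A, and the nearest constant region lay 5582 bp from it, at the start of Ift172, a gene of ciliary transport.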

How the data were processed

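Per the labels, C/EBPα and V5 libraries were made with KAPA HTP kits and H3K4me2 libraries with NEBNext kits, and these were run on different instruments. The submitters' processing notes list HOMER, MACS2 2.0.10.20131216, Picard and Bowtie2 2.2.3 with the build mm10, but not what each did. The authors' C/EBPα and V5 lists hold positions only. The deposited H3K4me2 lists of broad peaks also give a score, a fold enrichment (a ratio to background), and each peak's −log10 p and q. How the C/EBPα and V5 peaks were thinned to about 40% of their numbering is not given in the labels or files, nor are read numbers, so depth is unknown. H3K4me2 scores were compared only as ranks within a list, except in the stricter threshold at the pooled median −log10 q of 1.88. The C/EBPα classes and the shares of regions with an H3K4me2 or ARID1A peak rest on whether a peak was listed, so they can move with depth.

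The members, gene lists, motifs and tests were chosen with earlier results of these data known. Peaks were merged by 1 bp of overlap, and gene ends came from 21887 RefSeq protein-coding genes of GRCm38.p6. The strand came from the RefSeq promoter table, which has 17492 of these genes, and a region without a strand for its genes was left out of counts of starts. No genome was used. Shares have exact binomial (Clopper-Pearson) 95% intervals, which cover the counting of regions only, and a count of 0 allows up to 3 counts of the total. Libraries were compared by two-sided exact permutation tests with a threshold of 0.05. Regions were named by the nearest gene end. Some genes and 1 gene list are not reported here. Named members are the 12 widest by mean KO percentile, those at genes of the lists (up to 4 in a gene family), the 8 with the widest ARID1A peak, those without H3K4me2, up to 5 in each direction of H3K4me2 rank, the 5 widest shared by 2 or more genes, the 3 nearest the limit on each side and the 4 narrowest. When the merging was tested on simulated peaks, the number of regions in each class was recovered within a set tolerance. The simulated regions lay far apart, so closely spaced peaks were not tried. Python 3.11.15, pandas 2.3.3, numpy 2.4.6 and scipy 1.17.1 were used.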

Additional observations from a re-analysis of the deposited data

How the results depend on the processing

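The number of members depended on which C/EBPα peaks counted. With the 16178 widest peaks of each list there were 469 members and 551 genes, and 236 of the 469 overlapped the 287. Leaving out C/EBPα libraries gave 343 to 719 members and 408 to 830 genes, the highest without WT list 2 (719), and 580 and 530 without KO lists 1 and 2, since the rule then used fewer lists. Counting only peaks of 395 bp (the pooled median width) or more gave 309 members, of which 91 overlapped the 287. Requiring a peak to cover at least 50% of the merged region, chosen after seeing the data, gave 342. The planned wording, 50% of the shorter of region and peak, holds for every peak and left 287. Over these sets of members 2.99% to 4.85% had an ARID1A peak, always below the constant regions of the same setting, and 92.2% to 96.9% of those with a known strand were at a start. The H3K4me2 share ran from -7.96 to -1.51 points (KO minus WT) with a library left out, and was -9.64 with 50% coverage and -15.4 with the stricter threshold. The gain over constant regions stayed positive, at 1.34 to 2.89 points with a library left out. The H3K4me2 percentile ran from -11.4 to 1.61, turning direction without KO list 1 (1.61). Without KO list 3, 11 members ranked higher and 18 lower in KO. As a replicate block, sign flips of same-numbered libraries gave -3.83 (exact permutation p = 0.5), 2.28 (exact permutation p = 0.25, the smallest possible) and -5.04 (exact permutation p = 0.75). Deviations of same-numbered libraries correlated at 0.13, 0.27 and 0.07 over regions, so the numbers were not taken to pair them, although each library correlated best with its own number. The causes of these shifts were not tested. Depth is unknown, so a missing peak does not show missing binding.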

Other observations

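Members were spread over the genome. Every chromosome but Y held some, from 4 on chromosome 18 to 33 on chromosome 11, and they made up between 5.91% (chromosome 5) and 16.4% (X, 10 of 61) of gene-end regions with a peak in both KO lists. Another member lay within 50 kb of 25 of the 287 (8.71%). Genes with 2 members at their ends included Apoa4, Aspscr1, Ctdnep1, Ticam1, Ugp2, Uxt and the trio Atf5, Il4i1b and Nup62, which share theirs. Ticam1 encodes an adaptor of Toll-like receptors.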
